A study of Mus musculus with 21 samples.

Results

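Lumbar spinal cord of C57BL/6 mice without a working copy of 3110043O21Rik, the mouse ortholog of C9orf72, was compared with wild type cord at 3 months of age. The comparison takes 6 of the 21 libraries of the series. The C9orf72 -/- group, called null here, and the C9orf72 +/+ group, called wild type, had 3 libraries each. The 3 C9orf72 +/- (heterozygous) libraries of the same age entered the fit to estimate the spread between libraries, and their values are given for reference. The series also holds 12 libraries taken at 17 months, 4 per genotype. No treatment is labelled, and the sources used here do not describe how the allele was made or which cells lack the gene. The series' design text counts mice, so each library was taken as a mouse. The labels do not describe litters, and p-values measure the spread between these libraries only.

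Values were deposited as RPKM, reads scaled by transcript length and by the mapped reads of the library. Genes were included where at least 3 of the 6 null and wild type libraries reached 0.5 RPKM, which kept 13868 of 19747 genes. Of the genes in the table, 139 reached that value in exactly 3 of the 6 libraries and were kept, and 129 reached it in exactly 2 and were left out. The third highest of the 6 values was 0.5002 RPKM for the gene just inside and 0.4998 RPKM for the gene just outside.

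C9orf72 protein binds SMCR8 and WDR41, and the complex is recruited to lysosomes, where it acts on small GTPases and on the mTORC1 and autophagy pathways. Expansion of a repeat in human C9orf72 causes amyotrophic lateral sclerosis (ALS) and frontotemporal dementia (FTD). In mice, loss of the gene is known for its effects on macrophages, microglia and the immune system. The comparison asks which transcripts of the young adult cord differ when the gene is absent.

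The libraries expressed the genes of spinal cord cells at similar levels. Over the 9 libraries, Chat of motor neurons measured 10.9 to 12.9 RPKM, the glycine transporter gene Slc6a5 67.6 to 78.2, the astrocyte gene Aldh1l1 18.0 to 21.7 and the microglial gene P2ry12 6.95 to 8.14. All 9 libraries expressed Y-linked genes. Pairs of libraries correlated across genes at 0.995 to 0.998, and genes are not independent replicates. Read totals are unknown. The commonest ratio between low values of a gene put the deepest library, null replicate 1, at 2.12 times the reads of the shallowest, null replicate 3, which is approximate.

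A pair of libraries stood apart in groups of genes chosen after their values were seen. Null replicate 1 was far above the other libraries in fat genes. The uncoupling protein gene Ucp1 of brown fat measured 15.6 RPKM there, against at most 0.119 in the other 8 libraries, and the fatty acid binding protein gene Fabp4 measured 52.5, against at most 0.534. Some of these genes were expressed in all libraries, such as Cidea, at 11.2 RPKM in null replicate 1 and 2.13 to 3.41 RPKM in the other 8. The summed level of 10 fat genes was 125 RPKM in null replicate 1, 5.85 and 6.80 in null replicates 2 and 3, and 7.63, 5.77 and 5.41 in wild type replicates 1 to 3. Wild type replicate 1 was low in posterior Hox genes, which mark lumbar and sacral levels. The summed level of 7 such genes was 52.8, 65.2 and 56.3 RPKM in null replicates 1 to 3, and 27.3, 66.5 and 60.1 RPKM in wild type replicates 1 to 3. In wild type replicate 1 Hoxc11 was listed at 0, and Hoxd11 measured 0.0499 and Hoxa11 0.0294 RPKM. The summed level of 24 other Hox genes was 256 to 262 RPKM in null and 251 to 269 RPKM in wild type libraries.

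Of 13868 genes tested, 2 passed the threshold of a Benjamini-Hochberg adjusted limma p under 0.05, which is 0.0144% of them. Both were lower in null cords, and 0 genes were higher at that threshold. They were the targeted gene and Plekhm2, the adaptor that couples the lysosomal GTPase Arl8 to kinesin. At an unadjusted limma p under 0.05 there were 991 genes, 7.15% of those tested, with 489 (3.53%) higher and 502 (3.62%) lower in null cords. Centring each library on its median gave 326 higher and 701 lower, with a median difference over all genes of -0.00694 in place of 0.00432. The quartiles of the log2 difference lay at -0.04 and 0.0453, 26 genes differed by more than 0.5, and 1 gene, the target, by more than 1. The 3 null values lay wholly above the 3 wild type values for 856 genes (6.17%) and wholly below for 797 (5.75%).

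**Figure D1:**
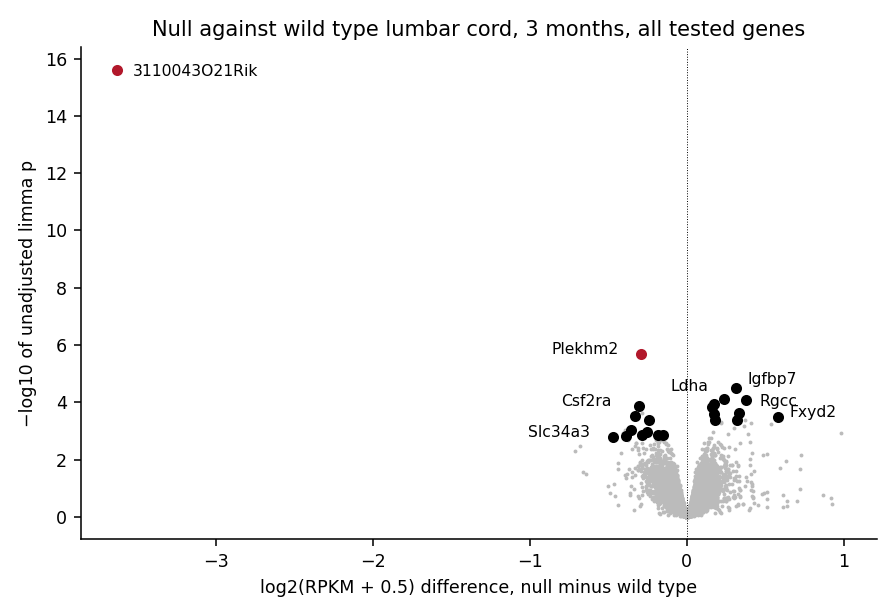
Log2(RPKM + 0.5) difference, null minus wild type at 3 months (horizontal axis), against -log10 of the unadjusted limma p (vertical axis), 1 point per tested gene. Red points are the 2 genes past the adjusted threshold, black points are the other 20 named genes, and the target at -3.63 stands far from the rest.

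The promoter sequences of these genes are shown because they are the only genes past the threshold. Each line gives the 250 bases before the transcript start used by the RefSeq promoter table (GRCm38.p6), on the minus strand. Both genes were found there. The GENCODE spans given below begin further upstream, so both windows lie inside those spans, and the annotations differ in where the genes start. Capitals mark each GGGCGG or its complement CCGCCC, the GC box, and matches may overlap.
3110043O21Rik, chr4:35225837-35226086: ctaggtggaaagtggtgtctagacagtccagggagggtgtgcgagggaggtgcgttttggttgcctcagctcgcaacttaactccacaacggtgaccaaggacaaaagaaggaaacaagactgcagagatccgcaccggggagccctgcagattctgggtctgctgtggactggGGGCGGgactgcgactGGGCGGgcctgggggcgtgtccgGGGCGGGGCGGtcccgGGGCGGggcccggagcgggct
Plekhm2, chr4:141664147-141664396: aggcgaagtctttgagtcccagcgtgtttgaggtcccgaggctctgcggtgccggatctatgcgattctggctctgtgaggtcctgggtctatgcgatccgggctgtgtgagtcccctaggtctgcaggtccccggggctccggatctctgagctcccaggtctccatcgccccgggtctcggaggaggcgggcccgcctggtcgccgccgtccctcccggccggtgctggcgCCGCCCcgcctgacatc
The target's window holds 5 such matches at 65.6% GC, and that of Plekhm2 holds 1 at 68.8% GC. GGGCGG on either strand occurs in 10756 of 32851 promoter windows of that length (32.7%). CACGTG, the core of the element bound by the lysosomal regulator TFEB, has 0 matches in both windows and occurs in 1978 of the 32851 (6.02%). A match is a description of letters and not of a bound site.

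The deleted gene was low in all null libraries and intermediate in all heterozygous ones. 3110043O21Rik lies at chr4:35191285-35226175 on the minus strand of GRCm38 and is annotated as protein coding. It measured 0.599, 0.422 and 0.545 RPKM in null replicates 1 to 3, 6.66, 6.23 and 6.31 in heterozygous libraries, and 12.1, 12.2 and 12.1 in wild type libraries. The null libraries held 4.93%, 3.48% and 4.49% of the wild type mean, and no groups overlapped. Its level fell by 3.63 in log2(RPKM + 0.5), with an SE of 0.06 and a limma adjusted p = 3.41e-12. This scale understates the change of a gene whose low group is near the added 0.5, and with 0.1 added the difference was -4.31. Which exons the remaining reads came from was not analysed here.

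Plekhm2 was the other gene past the threshold. It lies at chr4:141625734-141664899, also on the minus strand, and its start is 106 Mb from that of the target. It measured 35.9, 35.0 and 33.8 RPKM in null replicates 1 to 3, 42.2, 41.5 and 42.0 in heterozygous libraries, and 44.8, 41.6 and 41.9 in wild type libraries. The 3 null libraries were the lowest of the 9. Plekhm2 averaged 34.9 ± 1.09 RPKM in null and 42.8 ± 1.75 RPKM in wild type cords (SD, n = 3 each), so null cords held 81.5% of the wild type level. The gene fell by 0.29 on the log2 scale (SE 0.03, limma adjusted p = 0.0141). Exact two-sided permutation tests gave p = 0.1 for the target and for Plekhm2, the smallest that 3 against 3 libraries allow.

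The Plekhm2 call depended on the choice of fit, while its size changed little. The call was lost in 6 of 21 alternatives, and the difference lay between -0.31 and -0.26 in all 21. The lost calls came when low genes were left unfiltered, when limma ran without its trend and robust settings, in a fit of the null and wild type libraries alone, and in fits without null replicate 2, null replicate 3 or wild type replicate 3. Adjusted limma p ranged from 0.00481 to 0.311 over the alternatives.

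The same contrast was measured in other mice at 17 months. There Plekhm2 had 32.8, 34.0, 35.3 and 35.5 RPKM in null libraries, and 41.0, 39.9, 40.3 and 40.9 RPKM in wild type libraries. No null library reached the lowest wild type library at that age. The difference was -0.23 on the log2 scale (SE 0.05) and did not pass over all genes (limma adjusted p = 0.2). At that age 1 of 14028 genes passed, the target, which was lower in null cords and is 0.00713% of those tested. The values of null libraries lay wholly above or below those of wild type libraries for 3.12% of genes at 17 months, wholly above for 1.39%. The Plekhm2 difference stayed between -0.25 and -0.21 when each null or wild type library of that age was left out in turn. The target measured 1.68, 1.81, 0.926 and 0.579 RPKM in null cords and 13.5, 13.7, 13.9 and 14.5 RPKM in wild type cords at 17 months.

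**Figure D2:**
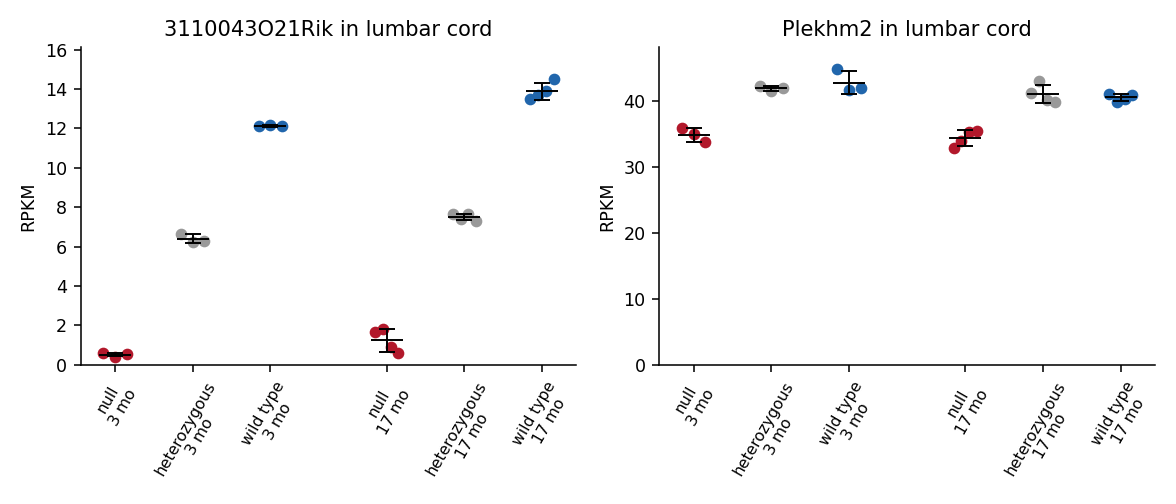
RPKM of the targeted gene (left) and Plekhm2 (right) by genotype at 3 and 17 months, each point a library, with bars at the mean ± SD (n = 3 per group at 3 months, 4 at 17 months). Null libraries lie at 0.422 to 1.81 RPKM for the target, and for Plekhm2 all null libraries, at most 35.9 RPKM, lie under all wild type libraries, at least 39.9 RPKM.

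Neighbours of both genes on chromosome 4 were mostly alike between the groups. The 25 tested genes within 5 Mb of the target had a median log2 difference of 0.0, with a range of -0.19 to 0.08. The largest in size were Mob3b, a kinase activator, at -0.19 (limma adjusted p = 0.717) and Lingo2, a neuronal membrane protein, at -0.18. Lingo2 averaged 3.27 RPKM in null and 3.78 RPKM in wild type cords without overlap (limma adjusted p = 0.659). The 19 tested neighbours of Plekhm2 within 0.5 Mb had a median of 0.01 and a range of -0.18 to 0.16, and 0 of them had an unadjusted limma p under 0.05. Chromosome 4 as a whole had 64 of 867 genes (7.38%) at an unadjusted limma p under 0.05, and over the 20 chromosomes that share ran from 4.26% to 9.21%. Among the genes past the threshold and the 10 per direction named below, 5 lay on chromosome 4, which held 6.31% of genes. Besides the target and Plekhm2 they were Col9a2 (start 121039385, difference -0.25), Nt5c1a (123201504, 0.32) and Sfpq (127021324, 0.18), outside both windows. Chromosome 5 came next with 3. Whether such genes group on chromosome 4 was not tested.

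The other subunits of the C9orf72 complex were measured at similar levels in both groups. Smcr8, the subunit with GTPase activating function, had 6.85, 7.36 and 7.04 RPKM in null cords and 6.74, 7.15 and 6.90 RPKM in wild type cords, a log2 difference of 0.03 (SE 0.05). Wdr41, which anchors the complex at lysosomes, had 11.3, 11.7 and 12.3 RPKM in null cords and 11.2, 11.5 and 11.8 RPKM in wild type cords, also a difference of 0.03 (SE 0.05). For both genes the groups overlapped. The list of the complex and its direct partners held 18 tested genes with a median difference of 0.028, beside 0.00432 over all genes. The target was its 1 member at an unadjusted limma p under 0.05. The kinase gene Ulk1, whose product starts autophagy, had 19.1, 18.5 and 18.8 RPKM in null cords and 19.2, 19.4 and 19.4 RPKM in wild type cords (difference -0.04, limma adjusted p = 0.839).

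Around Plekhm2 in its own pathway, 27 genes of lysosome positioning were tested. Their median difference was 0.001, and 14 were higher and 13 lower. At an unadjusted limma p under 0.05, 1 was higher and 4 were lower, Plekhm2 included, beside 3.53% higher and 3.62% lower over all genes. Without wild type replicate 1, 0 were higher and 1 was lower, beside 2.3% higher and 2.0% lower over all genes. Without null replicate 1, 2 were higher and 3 were lower, beside 6.09% and 5.28% over all genes. Arl8b, the lysosomal GTPase that Plekhm2 binds, had 54.3, 56.0 and 57.4 RPKM in null cords and 52.7, 52.8 and 53.9 RPKM in wild type cords. Its null values lay above all wild type values (difference 0.07, SE 0.03, limma adjusted p = 0.682). The kinesin heavy chain gene Kif5b, a motor that moves lysosomes outwards, had 87.2, 89.6 and 92.4 RPKM in null cords and 94.1, 93.8 and 93.7 RPKM in wild type cords (difference -0.06, SE 0.03, limma adjusted p = 0.691). The neuronal heavy chain gene Kif5a had 301, 295 and 299 RPKM in null cords and 316, 312 and 306 RPKM in wild type cords (difference -0.06, SE 0.02, limma adjusted p = 0.677). Apart from Plekhm2, 0 members passed the threshold.

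Lysosome and autophagy genes had medians near that of all genes. The 45 tested lysosome genes had a median difference of 0.010 within a range of -0.09 to 0.15, with 25 higher and 20 lower. Mcoln1, the lysosomal calcium channel, had the smallest p among them, at 25.6, 24.7 and 24.9 RPKM in null cords and 26.9, 27.5 and 25.9 RPKM in wild type cords (difference -0.09, SE 0.03, limma adjusted p = 0.677). Gaa, which breaks down glycogen in lysosomes, came next at -0.07 (SE 0.03). The 43 autophagy and mTORC1 genes had a median of 0.011 within a range of -0.08 to 0.08. Rheb, the GTPase that activates mTORC1, had the smallest p of that list (difference 0.08, SE 0.03, limma adjusted p = 0.677).

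Below the threshold, 10 genes per direction were named by a rule that took the smallest p among genes whose groups did not overlap. On the higher side the first was Igfbp7, a secreted protein of vessel walls, with 13.4, 13.2 and 14.7 RPKM in null cords and 10.6, 11.2 and 11 RPKM in wild type cords (difference 0.31, SE 0.05, limma adjusted p = 0.149). Ldha, the lactate dehydrogenase subunit of glycolytic cells, had 50.2, 46.6 and 50.2 RPKM in null cords and 39.1, 43.0 and 42.2 RPKM in wild type cords (difference 0.24, SE 0.04, limma adjusted p = 0.232). Rgcc, a cell cycle regulator, had 6.13, 6.80 and 6.53 RPKM in null cords and 4.85, 4.93 and 4.84 RPKM in wild type cords (difference 0.38, SE 0.07, limma adjusted p = 0.232). Heterozygous cords averaged 12.2 RPKM for Igfbp7, 41.7 for Ldha and 5.38 for Rgcc.

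Aqp4, the water channel of astrocyte end feet, averaged 94.3 ± 3.15 RPKM in null and 84.2 ± 1.46 RPKM in wild type cords (SD, n = 3 each, difference 0.16). Without null replicate 1 it passed over all genes (difference 0.19, limma adjusted p = 0.0486). Slco1c1, the thyroid hormone transporter of brain vessels and astrocytes, had 14.0, 14.1 and 14.0 RPKM in null cords and 12, 12.8 and 12.5 RPKM in wild type cords (difference 0.17). Gpam, the mitochondrial enzyme that begins triglyceride synthesis, had 24.1, 23.6 and 23.3 RPKM in null cords and 20.5, 21.3 and 20.9 RPKM in wild type cords (difference 0.17). Null replicate 1, which was high in the fat genes, was the highest of the 9 libraries in Gpam. The part of fat in the Gpam difference was not tested.

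Fxyd2, a regulator of the sodium pump, had the largest difference of the 10 higher genes. It measured 1.51, 1.73 and 1.32 RPKM in null cords and 0.721, 1.16 and 0.709 RPKM in wild type cords (difference 0.58, SE 0.12, limma adjusted p = 0.334). Without wild type replicate 2, its highest wild type library, it passed (limma adjusted p = 0.0387). The others were Fam13c (0.33), the nucleotidase gene Nt5c1a (0.32) and the paraspeckle RNA binding protein gene Sfpq (0.18).

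On the lower side the first was Csf2ra, the alpha subunit of the GM-CSF receptor, which myeloid cells carry. It had 6.21, 6.34 and 6.6 RPKM in null cords and 8.45, 7.33 and 8.26 RPKM in wild type cords (difference -0.30, SE 0.06, limma adjusted p = 0.259). Ttll3, a tubulin glycylase of cilia, had 5.15, 4.52 and 4.25 RPKM in null cords and 6.04, 6.01 and 5.80 RPKM in wild type cords (difference -0.33, SE 0.07). Nnat, an imprinted gene of neurons, had 55.9, 54.2 and 51.7 RPKM in null cords and 62.4, 59.6 and 69.6 RPKM in wild type cords (difference -0.24, SE 0.05). The highest adjusted limma p of these was 0.348, for Nnat.

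Most of the other genes on the lower side were low in level. Slc34a3, a phosphate transporter, averaged 0.685 ± 0.110 RPKM in null and 1.15 ± 0.235 RPKM in wild type cords (SD, n = 3 each), and its difference of -0.47 was the largest in size of the 10 lower genes. Nmu, which encodes the neuropeptide neuromedin U, differed by -0.39, the mitochondrial carrier gene Slc25a47 by -0.36, the sialyltransferase gene St6galnac5 by -0.29 and the collagen gene Col9a2 by -0.25. Arsg, a lysosomal sulfatase, had 28.3, 28.4 and 27.3 RPKM in null cords and 32.3, 29.6 and 31.4 RPKM in wild type cords (difference -0.15, SE 0.04). Dao, the D-amino acid oxidase of astrocytes, had 7.77, 7.57 and 7.90 RPKM in null cords and 8.67, 9.14 and 8.85 RPKM in wild type cords (difference -0.19, SE 0.05).

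**Figure D3:**
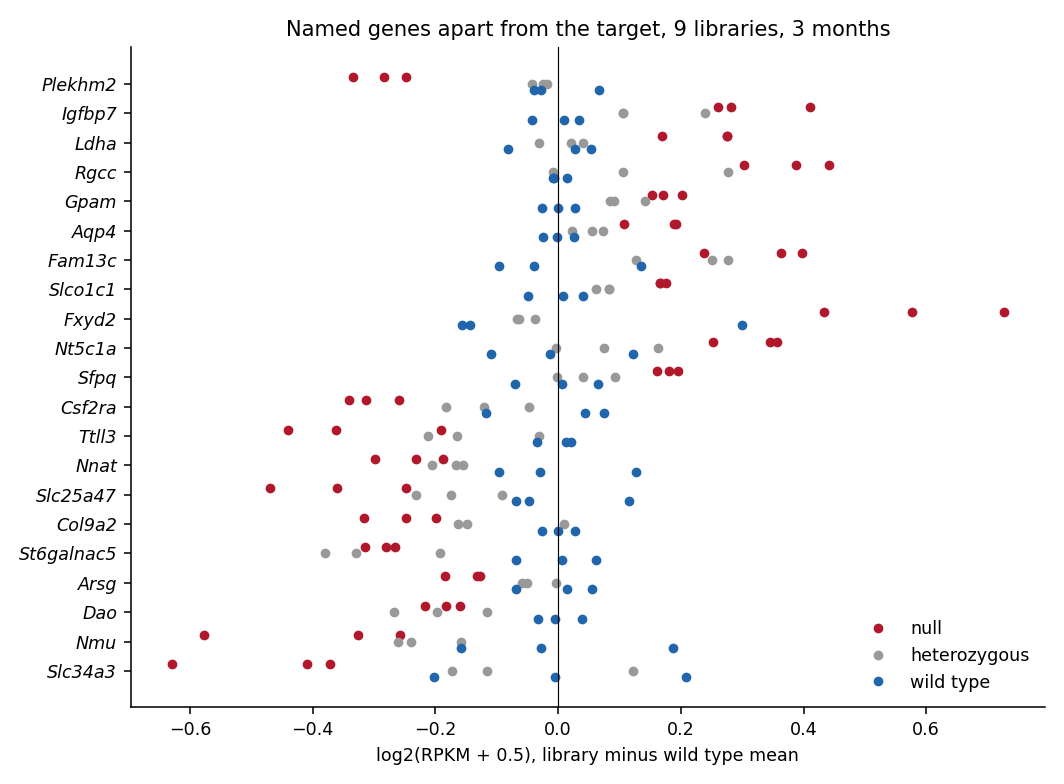
Log2(RPKM + 0.5) of each 3 month library minus the wild type mean (horizontal axis), for the 21 named genes apart from the target, with null, heterozygous and wild type libraries in separate rows of points. The null points of every gene lie on 1 side of its wild type points, as the rule required, and Plekhm2 differs by -0.29 between the group means.

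Of these 20 genes, 15 differed in the same direction in the 17 month mice. There, 5 of the 15 had an unadjusted limma p under 0.05, where 3.9% of all genes were higher and 3.29% lower at that value (7.19% in either direction). Of the 20 genes 0 passed adjustment at 17 months. Igfbp7 had 17.9, 32.0, 25.7 and 20.3 RPKM in null and 14.5, 13.9, 16.7 and 16.9 RPKM in wild type cords at 17 months (difference 0.58, limma adjusted p = 0.247). Its groups did not overlap at that age either. Gpam differed by 0.21 (limma adjusted p = 0.317) and Rgcc by 0.42 (limma adjusted p = 0.568). On the lower side Nmu differed by -0.40 (limma adjusted p = 0.461) and Arsg by -0.21 (limma adjusted p = 0.609). Aqp4, Fam13c, Ttll3, Nnat and Dao had the opposite sign at 17 months, and the smallest limma adjusted p of these was 0.751, for Nnat. The difference between the ages was not tested.

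Microglial genes gave small differences. Of 24 homeostatic microglial genes, 19 were lower and 5 higher in null cords, with a median of -0.037. Over all genes 47.3% were lower. Without wild type replicate 1, 13 were lower and 11 higher, with a median of -0.006. Csf1r, the receptor that microglia need to survive, had 16.8, 16.3 and 16.7 RPKM in null cords and 19.0, 17.0 and 17.2 RPKM in wild type cords (difference -0.09, SE 0.04, limma adjusted p = 0.707). Mertk, a receptor for the uptake of dying cells, ran the other way with 3.61, 3.74 and 4.23 RPKM in null cords and 3.00, 3.34 and 3.36 RPKM in wild type cords (difference 0.22, SE 0.07, limma adjusted p = 0.677). At 17 months 19 of the 24 genes were higher in null cords, where 52.5% of all genes were higher and 47.5% lower, with a median of 0.208, and the difference between the ages was not tested. In bulk tissue, fewer cells of a type and less RNA per cell cannot be told apart.

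Other immune lists had medians close to 0. The medians were 0.020 over 16 genes of activated microglia, -0.025 over 23 interferon response genes, -0.010 over 13 antigen presentation genes and 0.029 over 14 complement and Fc receptor genes. When null replicate 1 and wild type replicate 1 were left out they were 0.040, -0.060, -0.017 and 0.075 in the same order. With all libraries 11, 9, 6 and 10 of these genes were higher, where 52.7% of all genes were higher. Without wild type replicate 1 the counts were 16, 6, 7 and 11 (all genes 50.8%). At 17 months they were 16, 18, 12 and 14 (all genes 52.5%), and the difference between the ages was not tested. Lpl, of the activated list, measured 4.73 RPKM in null replicate 1 and 1.09 to 1.9 RPKM in the other 8 libraries. Fcer1g, the signalling chain of Fc receptors, had the smallest p of its list, with 6.45, 5.96 and 7.55 RPKM in null cords and 5.87, 5.39 and 5.42 RPKM in wild type cords (difference 0.23, SE 0.08, limma adjusted p = 0.677). Among the antigen presentation genes this was H2-K1, a class I heavy chain, with 20.4, 20.9 and 19.0 RPKM in null cords and 18.3, 18.4 and 18.5 RPKM in wild type cords (difference 0.13, SE 0.04, limma adjusted p = 0.677). Of 20 infiltrating myeloid genes in the table, 4 passed the filter, with a median of 0.108 and a range of -0.30 to 0.37. Of these, 3 were higher and 1 was lower. The lower one was Csf2ra, described above (difference -0.30, limma adjusted p = 0.259). Cd14, the endotoxin co-receptor, had 1.42, 1.60 and 1.34 RPKM in null cords and 1.01, 0.953 and 1.07 RPKM in wild type cords (difference 0.37, SE 0.08, limma adjusted p = 0.424). Of the T and NK cell genes and of the B and plasma cell genes, 0 passed the filter.

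No glucocorticoid, heat shock or immediate early gene passed the threshold. All 18 glucocorticoid target genes were higher in null cords, with a median of 0.164 and a range of 0.04 to 0.70, where 52.7% of all genes were higher. Of these 18, 4 were higher at an unadjusted limma p under 0.05, beside 3.53% of all genes. That count was 5 without null replicate 1 (all genes 6.09%). It was 2 without null replicate 3 (all genes 2.32%) and 2 without wild type replicate 1 (all genes 2.3%). Leaving out null replicate 1 and wild type replicate 1 together also gave 2 (all genes 4.26%). For 6 of the 18 the null values lay above all wild type values, beside 6.17% of all genes. This was also 6 without null replicate 3 (all genes 9.61%) and without wild type replicate 1 (all genes 9.92%). The mean of the list, relative to the wild type mean, was 0.122, 0.266 and 0.247 in null replicates 1 to 3, -0.180, 0.087 and 0.343 in heterozygous replicates 1 to 3, and -0.103, 0.044 and 0.058 in wild type replicates 1 to 3. All null libraries thus lay above the wild type libraries, and the heterozygous libraries spanned a wider range than either. Without null replicate 1 and wild type replicate 1, 16 of 18 were higher, with a median of 0.180.

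Among these targets, Errfi1, a feedback inhibitor of growth factor receptors, had 15.8, 18.1 and 17.5 RPKM in null cords and 14.7, 15.7 and 15.1 RPKM in wild type cords (difference 0.17, SE 0.06, limma adjusted p = 0.677). Dusp1, the phosphatase that ends MAP kinase signals, had 9.19, 8.74 and 9.58 RPKM in null cords and 7.77, 8.34 and 8 RPKM in wild type cords (difference 0.18, SE 0.06, limma adjusted p = 0.677). Plin4, a lipid droplet coat gene that fat also expresses, had 1.57, 1.15 and 1.18 RPKM in null cords and 0.753, 0.809 and 0.703 RPKM in wild type cords (difference 0.51, SE 0.15, limma adjusted p = 0.677). Its highest library was null replicate 1, whose 10 fat genes summed to 125 RPKM, and their part in its difference was not tested. At 17 months 17 of the 18 targets were higher in null cords, with a median of 0.798, where 52.5% of all genes were higher. No library of that age was left out in turn for this list, and the difference between the ages was not tested.

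The difference in heat shock and ER stress genes rested mainly on a single library. All 21 were higher in null cords, with a median of 0.099, and without null replicate 3 the median was 0.013 with 14 higher. The list mean relative to wild type was -0.013, 0.054 and 0.342 in null replicates 1 to 3, and -0.020, 0.008 and 0.012 in wild type replicates 1 to 3. It was -0.020, 0.087 and 0.218 in heterozygous replicates 1 to 3, so heterozygous replicate 3 was raised as well. Null replicate 3 was also the library with the fewest reads by the approximate ratio above, and the part of depth in this difference was not tested. Hspa5, the main chaperone of the ER, had 73.0, 78.5 and 94.9 RPKM in null cords and 67.7, 70.4 and 70.1 RPKM in wild type cords (difference 0.23, SE 0.09, limma adjusted p = 0.691). It was the 1 member of the 21 whose null values lay above all wild type values, beside 6.17% of all genes. Immediate early genes were higher for 19 of 22, with a median of 0.121, and their list means of 0.061 to 0.224 in null libraries overlapped those of -0.115 to 0.121 in wild type libraries. Their median was 0.068 without null replicate 3 and 0.063 without null replicate 1 and wild type replicate 1. Heterozygous replicates 1 to 3 had immediate early list means of 0.012, 0.09 and 0.27, the last above all null libraries.

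Hypoxia and glycolysis genes had more members without overlap than the background share. Of 20 genes 16 were higher, with a median of 0.032, and for 7 the null values lay above all wild type values, beside 6.17% of all genes. In the fit without null replicate 1, 13 were higher and 11 lay above all wild type values, beside 17.0% of all genes with those libraries. Adm, a vessel dilating peptide, had 2.45, 1.94 and 2.37 RPKM in null cords and 1.46, 1.73 and 1.51 RPKM in wild type cords (difference 0.41, SE 0.09, limma adjusted p = 0.371). Vegfa, the vascular growth factor, had 27.4, 24.7 and 26.7 RPKM in null cords and 20.7, 23.9 and 22.1 RPKM in wild type cords (difference 0.24, SE 0.07, limma adjusted p = 0.659). Egln3, an oxygen sensor, had 4.69, 5.21 and 5.06 RPKM in null cords and 3.47, 4.65 and 4.34 RPKM in wild type cords (difference 0.25, SE 0.08, limma adjusted p = 0.677). Ldha, described above, belongs to the same list, and 0 members passed the threshold.

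Endothelial and pericyte genes were higher for 16 of 20, with a median of 0.067. Emcn, an endothelial surface protein, had 5.01, 5.03 and 5.11 RPKM in null cords and 4.22, 4.73 and 4.15 RPKM in wild type cords (difference 0.19, SE 0.05, limma adjusted p = 0.659). Pdgfrb, the growth factor receptor of pericytes, ran the other way with 3.36, 3.5 and 3.08 RPKM in null cords and 4.11, 3.68 and 3.68 RPKM in wild type cords (difference -0.18, SE 0.06, limma adjusted p = 0.677). The list therefore held members in both directions. Its mean was 0.068, 0.088 and 0.084 in null replicates 1 to 3 and -0.042, 0.049 and -0.007 in wild type replicates 1 to 3. Without wild type replicate 1 its median was 0.038 and 13 of 20 were higher. Blood genes were measured beside these: 10 erythroid genes summed to 349, 468 and 509 RPKM in null and 387, 253 and 407 RPKM in wild type cords, with overlap. Of these 10 genes 9 were higher, with a median of 0.388, which was 0.22 without null replicate 3, 0.589 without null replicate 1 and 0.714 without null replicate 1 and wild type replicate 1. The part of blood in the vascular differences was not tested.

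Myelin genes leaned lower, with 21 of 24 below and a median of -0.067. The list mean was -0.015, -0.088 and -0.087 in null replicates 1 to 3 and 0.082, -0.091 and 0.009 in wild type replicates 1 to 3, so the groups overlapped. Without wild type replicate 1 the median was -0.021, with 13 lower and 11 higher. Enpp6, an enzyme of newly forming oligodendrocytes, had 9.37, 8.71 and 9.03 RPKM in null cords and 11.9, 9.91 and 10.1 RPKM in wild type cords (difference -0.22, SE 0.06, limma adjusted p = 0.659). Its null values lay below all wild type values. Cholesterol synthesis genes, which oligodendrocytes use heavily, were lower for 16 of 22, with a median of -0.042, and Dhcr7, which makes the final step to cholesterol, had 16, 15.7 and 16.3 RPKM in null cords and 17.2, 16.9 and 18.0 RPKM in wild type cords (difference -0.12, SE 0.04, limma adjusted p = 0.677).

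Neuronal lists, motor neurons included, had medians near 0 with all libraries. The medians were 0.004 over 22 genes of motor neurons and cholinergic cells, -0.001 over 26 neuronal and synaptic genes and 0.008 over 30 ALS and FTD genes. Wild type replicate 1, which was low in posterior Hox genes, also stood apart in the motor neuron list, whose mean was 0.021, -0.006 and 0.051 in null replicates 1 to 3 and -0.141, 0.097 and 0.044 in wild type replicates 1 to 3. Without it the motor neuron median was -0.053, with 15 of 22 lower in null cords. With null replicate 1 left out as well it was -0.043, with 17 lower and 9 wholly below the wild type values, beside 18.4% of all genes with those libraries. Chat, the acetylcholine synthesizing enzyme, had 11.8, 11 and 11.4 RPKM in null cords and 10.9, 12.9 and 12.5 RPKM in wild type cords (difference -0.08, SE 0.05, limma adjusted p = 0.755). The groups overlapped. Dctn1, a dynactin subunit mutated in motor neuron disease, had 91.4, 90.1 and 91.2 RPKM in null cords and 97.9, 94.1 and 94.1 RPKM in wild type cords (difference -0.07, SE 0.03, limma adjusted p = 0.691). Ribosomal protein genes had a median of -0.005 over 77 genes. The signs of the motor neuron, neuronal, ALS and FTD and ribosomal medians all changed under some alternative, so no direction is given for them.

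Reactive astrocyte genes were higher for 15 of 19, with a median of 0.056, while the 18 astrocyte genes as such had a median of 0.011. Lcn2, a secreted iron carrier of reactive astrocytes, had 1.13, 1.23 and 2.66 RPKM in null cords and 0.63, 0.915 and 0.734 RPKM in wild type cords (difference 0.72, SE 0.26, limma adjusted p = 0.677). Null replicate 3 was far above the other null libraries in this gene. Meningeal and fibroblast genes were higher for 12 of 13, with a median of 0.097, and their list means of -0.002, 0.238 and 0.093 in null libraries overlapped those of -0.131, 0.038 and 0.093 in wild type libraries. The meningeal median was 0.199 without null replicate 1 and 0.064, with 9 of 13 higher, without wild type replicate 1, and it ranged from 0.015 to 0.199 over all alternatives. Ependymal genes had a median of -0.064 over 8 genes. The remaining medians were 0.003 over 12 genes of oligodendrocyte precursors, 0.032 over 12 inflammatory genes, -0.010 over 17 circadian genes, 0.006 over 9 Schwann cell genes and 0.026 over 6 genes of dorsal root ganglion. Without null replicate 1 and wild type replicate 1, the medians were 0.035 for astrocytes, 0.045 for inflammatory genes and 0.103 for dorsal root ganglion. In these lists 0 genes passed the threshold.

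**Figure D4:**
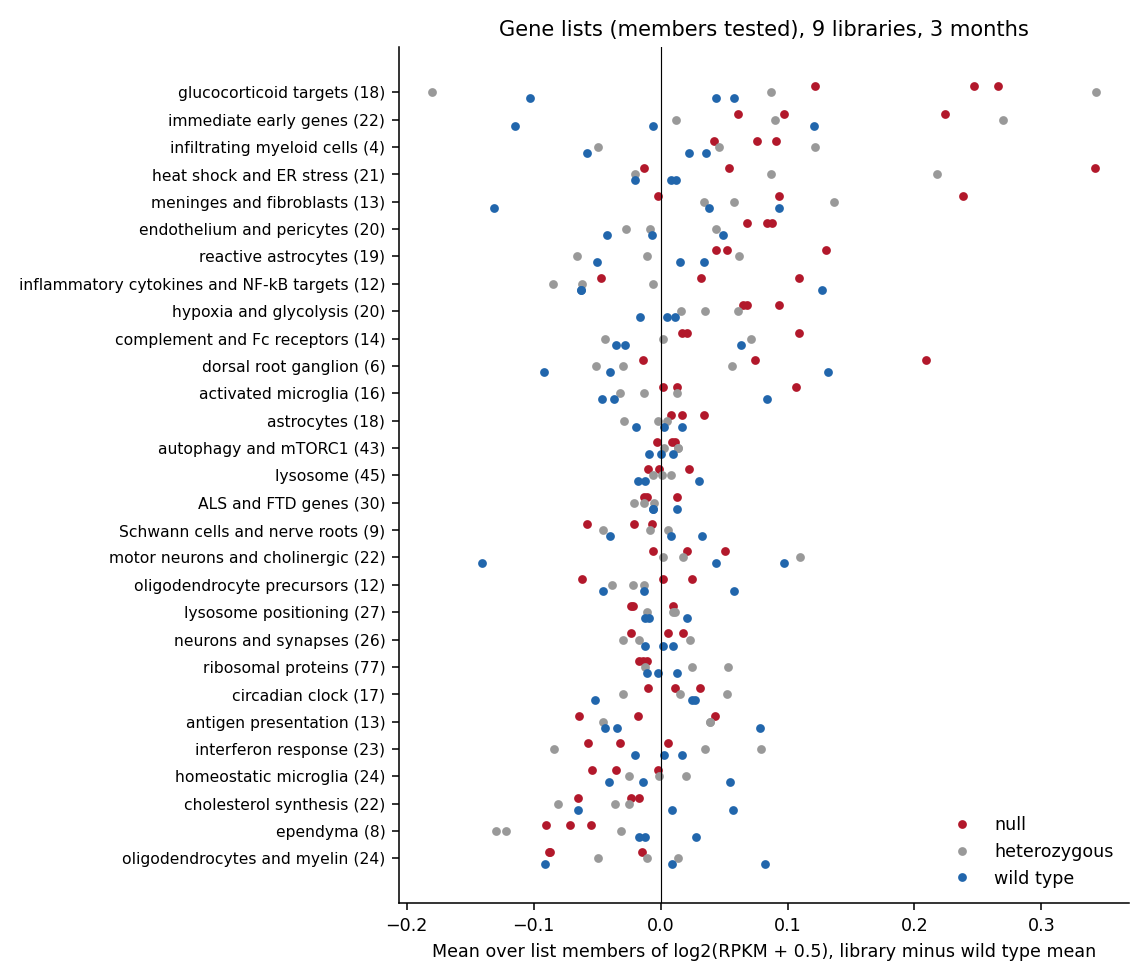
Mean log2(RPKM + 0.5) of each gene list in each 3 month library, relative to the wild type mean (horizontal axis), ordered by the median difference, with the number of tested members in brackets. The C9orf72 complex, erythroid, fat and Hox lists and lists with fewer than 3 tested members are not drawn. Null libraries of the glucocorticoid targets, at 0.122 to 0.266, lie above the wild type libraries. They also lie above for hypoxia and glycolysis, endothelial and pericyte, reactive astrocyte and infiltrating myeloid genes, and below for ependymal genes. Most other lists overlap between the groups.

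Stretches of neighbouring genes departed from the rest in some libraries. A scan for runs of 5 neighbouring genes whose median departed by more than 0.3 on the log2 scale gave 1 stretch in each null library and in wild type replicate 1, and 0 in the other 5 libraries. That of wild type replicate 1 ran from Hoxd11 to Hoxd9. In null replicate 1 the stretch ran from Gabra5 to Mef2a on chromosome 7 (GRCm38, 57.4 to 67.4 Mb) and held 35 tested genes. There 26 genes measured 1.36 to 1.83 times the wild type mean, with a median of 1.5. The other null and wild type libraries had medians of 0.992 to 1.01 for these 26 genes. Heterozygous libraries had medians of 0.982 to 1.0 over all 35 genes.

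The genes of the stretch that did not depart were neighbours, from D7Ertd715e to Magel2, within a known imprinted cluster. D7Ertd715e and C230091D08Rik were placed at the same annotated span and are counted apart. In null replicate 1 they stood at 0.868 and 1.83 times the wild type mean. Ube3a, a ubiquitin ligase expressed from the maternal copy in neurons, had 22.2, 11.9 and 13.1 RPKM in null replicates 1 to 3 and a wild type mean of 12.3, so null replicate 1 stood at 1.80 times that mean. Whether the counting used strand is not stated, and if it did not, reads of Ube3a and of its antisense transcript could not be told apart. The receptor gene Chrna7 had 9.15, 6.52 and 5.98 RPKM in null replicates 1 to 3 and a wild type mean of 6.08, and the junction gene Tjp1 had 25.3, 17.0 and 17.6 RPKM and a wild type mean of 16.4. The 9 genes of the stretch that did not depart measured 0.863 to 1.13 times the wild type mean, with a median of 0.963. These 9 genes included the paternally expressed Snrpn (159 RPKM in null replicate 1, wild type mean 157), Ndn (113, wild type mean 117) and Magel2 (1.58, wild type mean 1.70). Just outside the stretch, Gabrg3 stood at 1.24, 1.22 and 1.24 times the wild type mean in null replicates 1 to 3. The flanking Herc2 stood at 0.973 and Lrrc28 at 0.985 times the wild type mean in null replicate 1. Of the 35 genes 0 passed over all genes, and 3 had an unadjusted limma p under 0.05, which is near the share of 7.15% over all genes. At 17 months the null libraries had medians of 0.974 to 1.02 times the wild type mean over 34 of these genes.

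A shorter stretch at the start of chromosome 11 was low in the other null libraries. The scan placed it from Drg1 to Pik3ip1, and the neighbouring Sfi1 was added to it. Sfi1, Drg1, Eif4enif1, Patz1 and Pik3ip1 had median ratios to the wild type mean of 0.998 in null replicate 1, 0.661 in null replicate 2 and 0.672 in null replicate 3. Heterozygous libraries had medians of 0.984 to 1.03, and null libraries of 17 months had medians of 0.987 to 1.09. Patz1, a transcription factor, had 11.6, 7.17 and 7.12 RPKM in null replicates 1 to 3 and a wild type mean of 11.2. Pik3ip1, an inhibitor of PI3 kinase, had 22.1, 15.1 and 14.0 RPKM in null replicates 1 to 3 and a wild type mean of 22.9. The fit without null replicate 1 gave 8 genes past the threshold: the 5 of the stretch, the target, Plekhm2 and Aqp4. The 5 were singled out after their values were seen, as low in null replicates 2 and 3 only. Their passing without null replicate 1 follows from that choice and is no support for a difference by genotype. The copy number and parental origin of these stretches were not tested.

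**Figure D5:**
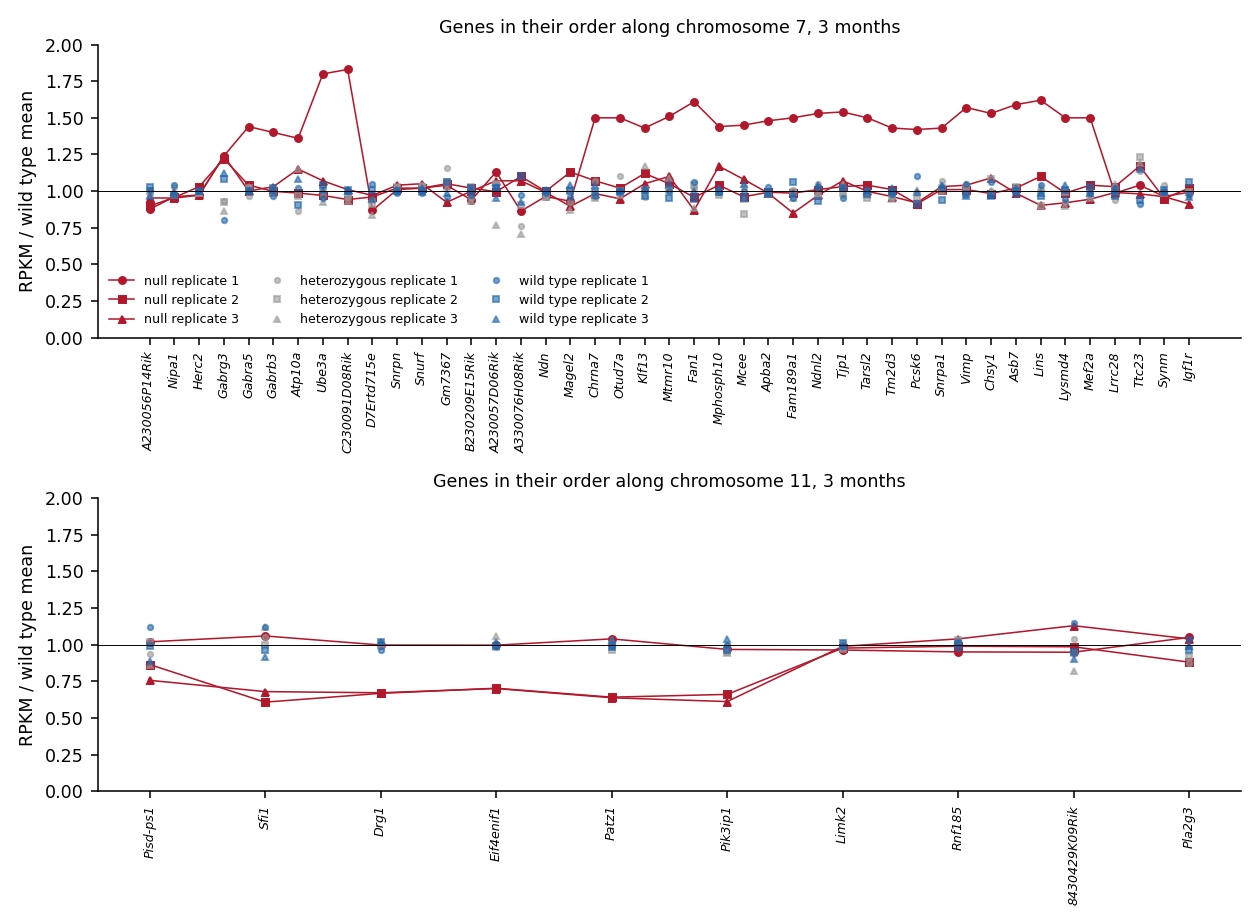
RPKM of each 3 month library over the wild type mean (vertical axis) for tested genes in their order along chromosome 7 (above) and chromosome 11 (below), flanking genes included, with null libraries joined by lines. Null replicate 1 lies at 1.36 to 1.83 for 26 chromosome 7 genes, and null replicates 2 and 3 lie at 0.608 to 0.703 for 5 chromosome 11 genes.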

How the data were processed

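For each age the authors deposited a table of values in RPKM; read counts were not used here. Per the labels' protocols, RNA of frozen lumbar cord was made into libraries with Illumina TruSeq chemistry at 3 months and by Ion Torrent protocols at 17 months. TopHat2 2.0.8b, Partek and the builds mm9 and mm10 are named, per the submitters' processing notes, without saying which build a table used. How reads were counted, the annotation and the use of strand are not stated there. Values too small for a single read occur, whole reads were not recovered, and near-identical genes cannot be told apart (14 tested genes shared identical values with another). Rows named as dates (26, at most 0.274% of a library's total) were left out. Depth per library is unknown, so counting error could not be given.

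The filter was 0.5 RPKM in 3 or more of the 6 null and wild type libraries, and log2(RPKM + 0.5) entered limma 3.58.1 under R 4.3.3 with statmod 1.5.0, using trend and robust empirical Bayes, with all 9 libraries of 3 months in 1 model, null minus wild type, two-sided, Benjamini-Hochberg adjusted over all tested genes. The design had also allowed for counts, and the test for normalized values was used. The 17 month table was fitted likewise with 12 libraries (14028 genes, 0.5 RPKM in at least 4 of 8). Ages were not pooled. The fit was tested on simulated data. The members, the 35 gene lists, the named gene rule and the tests were chosen with earlier results of these data known. The rule names the target, genes past the threshold, 10 further genes per direction with the smallest p among those without overlap and at 1 RPKM or more in the higher group (clone names left out), Smcr8, Wdr41 and up to 4 members per list with the smallest p. Other genes named (chromosome neighbours, fat, Hox, marker and stretch genes, Ulk1) were chosen after their values were seen. Lists with fewer than 3 tested members (skeletal muscle with 2, T and NK cells, B and plasma cells, and mitochondrially encoded genes with 0) were not described further. Positions came from GENCODE and RefSeq (GRCm38), where 18550 of 19747 names matched directly and 896 by an older symbol. Replicate numbers did not pair the libraries. Alternatives varied the pseudocount, filter, scaling, limma settings, library weights, groups fitted, a replicate block and each library left out. Plots used matplotlib 3.10.9 in Python 3.11.15.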

Additional observations from a re-analysis of the deposited data

Results flagged for a closer look

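A single library lay apart from the other 3 of its group in 2 of the named genes at 17 months, by the gap test for groups of 4 libraries at the 95% level. Ldha measured 52.0 RPKM in wild type replicate 4, against 38.0 to 39.9 RPKM in the other wild type libraries of that age. Slco1c1 measured 10.9 RPKM in the same library, against 13.2 to 13.4 RPKM in the others. Of the 22 named genes, each was examined in the null and the wild type group of 17 months, and chance flags about 1 group in 20. The 3 month groups, with 3 libraries each, were too small for that test.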

How the results depend on the processing

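Of 21 alternatives, 12 gave a count within 1.5 times the 2 genes called. Without a filter, without limma's trend and robust settings, and with only null and wild type fitted, 1 gene was called each time, the target. Leaving out 1 library gave 1 to 8 genes, the 8 without null replicate 1, and leaving out null replicate 1 and wild type replicate 1 together, added after seeing the data, also gave 8. The replicate block gave 5 genes, 3 higher and 2 lower. Replicate numbers share only a number: residuals of same-numbered null and wild type libraries correlated at 0.204, 0.06 and 0.059, and only those numbered 1 correlated best with their own number. The target passed under all 21 alternatives (-4.31 to -3.11), and Plekhm2 under 15. The 20 genes named below the threshold kept their sign throughout, stayed under the threshold in 415 gene and alternative pairs and passed in 4: Igfbp7 with the replicate block (0.31, limma adjusted p = 0.0332), Fxyd2 without wild type replicate 2, and Aqp4 without null replicate 1 and in the fit without both libraries (0.20, limma adjusted p = 0.0497). The count at an unadjusted limma p under 0.05 ranged from 596 (without wild type replicate 1) to 1577 (without null replicate 1). The median difference of 13 lists changed sign under at least 1 alternative, among them lysosome, autophagy and neuronal genes. DESeq2 was not run, since the tables hold no counts. The cause of these shifts was not tested. Depth per library is unknown, so no limit from counting error could be given.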
